A study of Arabidopsis thaliana with 12 samples.

Results

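The smax1-2 mutant of Arabidopsis thaliana was compared with the wild type (WT) across all genes of 7-day-old whole seedlings. The comparison set 3 smax1-2 libraries against 3 WT libraries, chosen by their genotype labels out of 12 libraries in the series. All plants were of the Col-0 background and grew on plates with 12 h of light and 12 h of darkness at 21 °C, and each replicate pooled 15 seedlings. The other genotypes, smxl5-1 and smxl4-1 smxl5-1 with 3 libraries each, served to estimate the spread and to set the smax1-2 values in context. The type of lesion behind the smax1-2 allele, and whether a second allele or a complemented line was used, are not stated in the labels. Of 20869 genes with a value in any library, 19656 had a value of at least 1 in at least 3 libraries and were tested.

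SMAX1 (SUPPRESSOR OF MAX2 1) encodes a nuclear repressor of the SMXL family. Karrikins, butenolides found in smoke, and an as yet unnamed plant signal are perceived by the hydrolase-like receptor KAI2. KAI2 then acts with the F-box protein MAX2 to have SMAX1 and its closest relative SMXL2 degraded. SMXL6, SMXL7 and SMXL8 serve the strigolactone receptor D14 in the same way, while SMXL3, SMXL4 and SMXL5 act in phloem formation. Loss of SMAX1 is known for seedlings that respond as if karrikin were always present, with short hypocotyls and high levels of the marker genes DLK2, KUF1 and BBX20.

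Each gene's level is given as a gene value in FPKM, a fragment density scaled to transcript length and library size, summed over the assembled transcript pieces of the gene. Each piece was weighted by its length as a share of the reference transcript, here called plain length. The same value was also computed with effective length, which allows for the fragment length of the library and counts short pieces less. Its value is given beside results whose call it alters. The tables hold no read counts, so the depth of each library is unknown. The smax1-2 libraries held 30128 to 30357 assembled pieces, against 28610 to 28753 in WT, with a median length of 836 to 868.5 bases against 901 to 962 bases. Class code = marks a piece that matches a reference transcript, though not always over its whole length. The share of pieces with this code was 37.1% to 38.4% in smax1-2 and 41.3% to 42.7% in WT. These measures did not overlap between the genotypes, and their part in the results below was not tested.

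Few genes passed the test for a difference between smax1-2 and WT, with the spread estimated over the libraries of all 4 genotypes. With 3 libraries each, a gene that did not pass may still differ. The smax1-2 and WT libraries did not overlap in 3405 of the genes tested (17.3%). By limma with Benjamini-Hochberg adjustment over all genes tested, 7 genes passed an adjusted p of 0.05, or 0.0356% of those tested, 3 of them higher (0.0153%) and 4 lower (0.0204%) in smax1-2. The lower genes included IAA19, a repressor of auxin response, and the higher ones included a gene of the RALF signalling-peptide family, AT4G14020. With effective length, 17 of 18884 genes were called (0.09%), 10 higher (0.053%) and 7 lower (0.0371%), and 6 genes were called with both. The 11 genes called with effective length alone included the karrikin-response genes DLK2 and KUF1, higher in smax1-2, and the brassinosteroid-response gene BEE3, lower. At an unadjusted p under 0.05 there were 1330 genes with plain length (6.77%), 966 higher (4.91%) and 364 lower (1.85%). Leaving out smax1-2 replicate 3 left 3 calls, all lower, and leaving out WT replicate 1 gave 6 calls, all higher. The level needed for testing sets part of these directions. Of the called genes, AT5G27500, AT3G01329 and AT1G11735 were listed in WT alone and were not tested without a WT library. AT3G29788 was listed in smax1-2 alone and was not tested without a smax1-2 library.

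**Figure D1:**
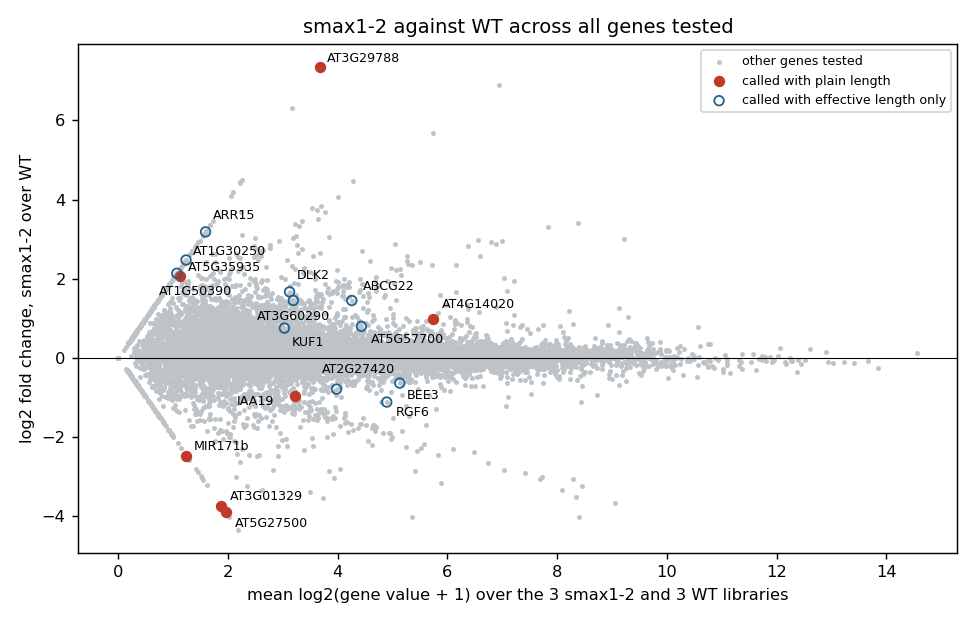
Log2 fold change of smax1-2 over WT (vertical axis) against the mean log2(gene value + 1) over the 6 libraries (horizontal axis) for the 19656 genes tested. Filled points are the 7 genes called with plain length and open circles the 11 called with effective length alone; the diagonal edges are genes listed at 0 in one genotype, whose plotted fold change depends on the pseudocount of 1.

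SMAX1 itself (AT5G57710, chromosome 5, 23384255 to 23388465 on the + strand in TAIR10.1, 4 exons) was still transcribed in the smax1-2 libraries. Its gene value was 18.21, 15.1 and 17.3 FPKM in smax1-2, against 22.5, 21.3 and 21.3 FPKM in WT. All 3 smax1-2 libraries lay below all 3 WT libraries, but the difference did not pass the test (log2 fold change -0.35, SE 0.14, adjusted p = 0.712). In every one of the 6 libraries the gene was assembled as 1 piece with class code =. It was 3518 to 3574 bases long in smax1-2 and 3547 to 3584 bases in WT, beside a reference of 3274 bases. A transcript level of this kind does not check the genotype label, because it does not show whether the transcript carries the lesion. SMAX1 was lower in smax1-2 than in smxl4-1 smxl5-1, where it averaged 28.2 FPKM (log2 difference -0.71, adjusted p = 0.0357). Against smxl5-1, where it averaged 28.4 FPKM, the adjusted p was 0.0827.

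The other 7 genes of the SMXL family were measured, and none was called with either gene value. SMXL2, the closest relative of SMAX1, was at 5.08, 6.10 and 6.49 FPKM in smax1-2 and at 4.26, 3.53 and 4.04 FPKM in WT. The genotypes did not overlap, with a log2 fold change of 0.48 (SE 0.16, adjusted p = 0.658). The strigolactone-pathway repressors SMXL6 and SMXL7 averaged 7.40 ± 1.45 and 9.55 ± 0.58 FPKM in smax1-2, against 6.54 ± 1.36 and 8.21 ± 1.59 FPKM in WT (SD, n = 3 each). Among the phloem members, SMXL5 averaged 5.21 ± 0.09 FPKM in smax1-2 and 4.47 ± 0.89 FPKM in WT. SMXL3 and SMXL4 each had 1 library far from the rest. SMXL3 stood at 44.5 FPKM in WT replicate 1, and at 0.73 to 5.17 FPKM in the other 5 libraries. SMXL4 stood at 16.1 FPKM in smax1-2 replicate 3, against 1.81 to 3.88 FPKM in the other 5.

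The karrikin and strigolactone list held 13 genes, of which 9 had a value and were tested. With plain length none of the 9 was called, and 4 had all smax1-2 libraries above all WT libraries, while 12.9% of all genes tested did so. With effective length 2 of the 9, DLK2 and KUF1, were called higher, against 0.053% of all genes tested. The list's median log2 fold change was 0.36 with plain length and 0.10 with effective length, beside 0.09 and 0.07 for all genes tested. The receptor genes and the F-box gene overlapped between the genotypes or differed little. KAI2 averaged 39.6 ± 2.9 FPKM in smax1-2 and 36.5 ± 0.8 FPKM in WT, with an adjusted p of 0.843. D14 averaged 41.1 ± 6.1 FPKM against 38.2 ± 3.5 FPKM, and MAX2 averaged 12.1 ± 1.2 FPKM against 13.4 ± 1.6 FPKM (SD, n = 3 each).

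DLK2 (AT3G24420), a relative of the receptors that karrikin induces, had the clearest separation of the list. It was at 14.9, 13.9 and 14.7 FPKM in smax1-2, against 4.02, 2.703 and 5.29 FPKM in WT. Every smax1-2 library stood far above the highest WT library, and the log2 fold change was 1.66 (SE 0.60, adjusted p = 0.677). The large standard error came with 1 library of another genotype, since smxl4-1 smxl5-1 replicate 2 held 22.8 FPKM where its fellows held 2.40 and 3.31 FPKM. With effective length the log2 fold change was 1.83 (SE 0.23, adjusted p = 0.0233), and over the 15 alternatives that kept every smax1-2 and WT library its adjusted p lay between 0.0227 and 0.957. With effective length and each of the 6 libraries left out in turn, the adjusted p was 0.0755 to 0.129 and the gene was not called.

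KUF1 (AT1G31350), which encodes an F-box protein named for its induction by karrikin, was at 9.73, 8.32 and 10.7 FPKM in smax1-2 and at 4.35, 7.89 and 4.24 FPKM in WT. The genotypes did not overlap, and WT replicate 2 came close to the smax1-2 libraries. In that library the gene was assembled in 3 pieces of 377, 584 and 233 bases, and elsewhere among the 6 libraries in 1 piece of 1344 to 1435 bases. The log2 fold change was 0.75 (SE 0.23, adjusted p = 0.605) with plain length. With effective length it was 1.01 (SE 0.11, adjusted p = 0.00893), and over the 15 alternatives the adjusted p lay between 0.00893 and 1. That call was lost without WT replicate 1 (adjusted p = 0.0558) and without WT replicate 2 (0.0671).

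BBX20, a B-box transcription factor gene also induced by karrikin, was at 9.36, 6.07 and 4.06 FPKM in smax1-2 against 2.18, 0 and 2.46 FPKM in WT. The smax1-2 libraries were all higher but spread widely among themselves (log2 fold change 1.69, SE 0.46, adjusted p = 0.531), and the gene was not called with effective length either (adjusted p = 0.26). The strigolactone-synthesis genes D27, MAX1 and LBO were not called, and MAX1 had no overlap, with 13.2, 11.7 and 12.5 FPKM in smax1-2 and 7.64, 10.3 and 10.9 FPKM in WT. The remaining 4 genes of the list, CCD7, CCD8, BRC1 and BRC2, were not listed in any library.

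**Figure D2:**
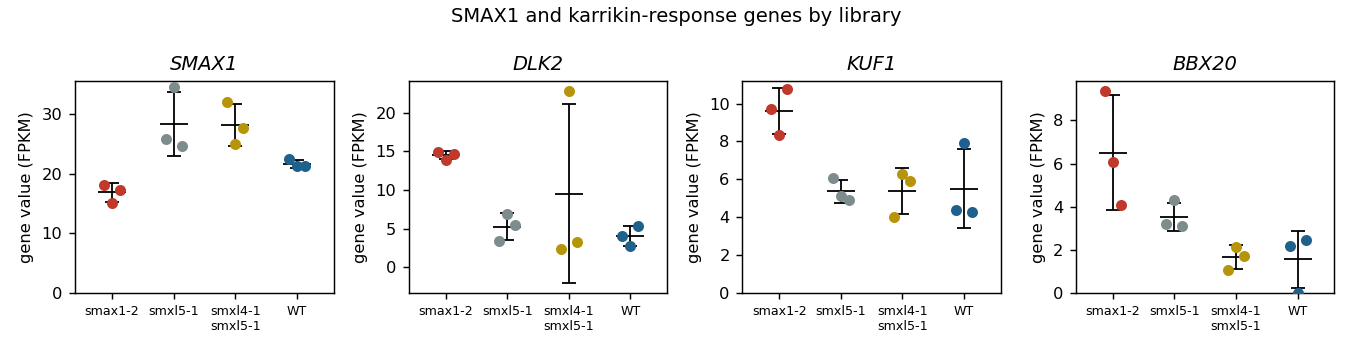
Gene value in FPKM (vertical axis) of SMAX1 and of the karrikin-response genes DLK2, KUF1 and BBX20 in each library of the 4 genotypes; points are libraries, the long bar is the mean and the error bar the SD of 3 libraries. DLK2 lies at 13.9 to 14.9 FPKM in smax1-2 and at 2.703 to 5.29 FPKM in WT.

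Transcripts of the auxin list leaned the other way. Of its 31 genes 29 were tested, 1 was called lower with plain length (IAA19) and none higher. With no overlap between the genotypes, 12 of the 29 were lower and 1 higher in smax1-2, while 4.43% of all genes tested were lower and 12.9% higher in this way. With effective length 13 of 27 were lower and none higher, beside 5.19% and 12.0% of all genes tested. The list's median log2 fold change was -0.16, beside 0.09 for all genes. Under quantile normalization, which shifted the median of all genes to -0.02, the list's median was -0.24. The 12 genes held 8 of the Aux/IAA family, the auxin-induced repressors of auxin response, as well as the auxin exporters PIN3 and PIN4, the auxin-synthesis gene TAA1 and the auxin-conjugating enzyme gene GH3.6.

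IAA19 (AT3G15540, chromosome 3, 5264001 to 5265695, + strand, 3 exons), an Aux/IAA gene known for its part in hypocotyl growth and bending, fell in smax1-2. It was at 5.25, 5.85 and 5.85 FPKM in smax1-2, against 13.8, 11.8 and 10.9 FPKM in WT. The log2 fold change was -0.98 (SE 0.12, adjusted p = 0.0371), and -1.13 (adjusted p = 0.011) with effective length. The gene averaged 9.18 FPKM in smxl5-1 and 5.74 FPKM in smxl4-1 smxl5-1, so low levels were not limited to smax1-2, and the difference from either of these genotypes did not pass the test (adjusted p = 0.0869 and 0.983). With effective length smax1-2 was lower than smxl5-1 (log2 difference -0.77, adjusted p = 0.0317), and the adjusted p against smxl4-1 smxl5-1 was 0.651. The call did not hold when any 1 of the 6 libraries was left out (adjusted p 0.0693 to 0.171). With effective length it was lost without WT replicate 1 (adjusted p = 0.0631) and without WT replicate 2 (0.0705), and over the 15 alternatives the adjusted p lay between 0.011 and 0.881.

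Further Aux/IAA genes were lower in smax1-2 without overlap and were not called. IAA1 was at 6.74, 7.74 and 5.998 FPKM in smax1-2 and at 13.2, 13.4 and 12.8 FPKM in WT (log2 fold change -0.86, SE 0.13, adjusted p = 0.098). Its level in smax1-2 was also below that in smxl4-1 smxl5-1, which averaged 13.2 FPKM (log2 difference -0.86, adjusted p = 0.0139). IAA3 was at 20.6, 22.2 and 17.8 FPKM in smax1-2 against 38.5, 32.1 and 29.7 FPKM in WT (log2 fold change -0.70, adjusted p = 0.262). It stood low in all mutants, with 22.0 FPKM in smxl5-1 and 24.4 FPKM in smxl4-1 smxl5-1 on average. IAA14 had 9.15, 11.8 and 10.4 FPKM in smax1-2 against 16.4, 19.3 and 23.3 FPKM in WT, and IAA7 had 149, 98.3 and 114 FPKM against 187, 163 and 171 FPKM. IAA6 was listed at 0 in every smax1-2 library and at 6.27, 2.03 and 1.93 FPKM in WT. It was also at 0 in every smxl5-1 library, and at 1.34, 0 and 0 FPKM in smxl4-1 smxl5-1.

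The 250 bases upstream of the annotated start are shown for DLK2 and KUF1, the karrikin-response genes called with effective length, and for IAA19, the called gene of the auxin list, with its relative IAA1. They were read from the TAIR10.1 assembly of RefSeq, 5′ to 3′ on the strand of the gene, at chr3:8865240-8865489 (- strand) for DLK2, chr1:11222828-11223077 (- strand) for KUF1, chr3:5263751-5264000 (+ strand) for IAA19 and chr4:8360746-8360995 (+ strand) for IAA1. Capitals mark matches on either strand to TGTCTC, the core auxin response element, to CACGTG, the G-box of light and brassinosteroid regulators, and to ATAACAA, a motif known to be bound by SMXL6. The motifs found did not overlap each other.
DLK2: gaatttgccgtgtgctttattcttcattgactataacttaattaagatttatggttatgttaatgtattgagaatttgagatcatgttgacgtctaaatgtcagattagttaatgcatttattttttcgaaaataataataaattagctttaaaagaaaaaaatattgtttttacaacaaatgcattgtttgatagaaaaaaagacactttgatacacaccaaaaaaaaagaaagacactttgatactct
KUF1: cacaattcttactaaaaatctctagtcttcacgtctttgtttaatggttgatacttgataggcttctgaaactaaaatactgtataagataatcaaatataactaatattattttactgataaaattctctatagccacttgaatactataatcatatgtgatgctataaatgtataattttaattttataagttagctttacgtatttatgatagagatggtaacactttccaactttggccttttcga
IAA19: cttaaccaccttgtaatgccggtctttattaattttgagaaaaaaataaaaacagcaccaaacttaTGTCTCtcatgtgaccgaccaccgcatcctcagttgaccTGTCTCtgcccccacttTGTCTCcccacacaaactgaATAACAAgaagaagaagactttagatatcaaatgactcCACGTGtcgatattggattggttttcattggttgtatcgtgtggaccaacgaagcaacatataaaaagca
IAA1: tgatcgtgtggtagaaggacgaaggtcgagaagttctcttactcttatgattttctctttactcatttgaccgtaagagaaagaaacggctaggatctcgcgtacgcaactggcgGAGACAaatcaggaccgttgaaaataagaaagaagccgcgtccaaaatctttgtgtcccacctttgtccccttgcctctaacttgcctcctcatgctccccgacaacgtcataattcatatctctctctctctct
The IAA19 window held 3 copies of TGTCTC, 1 of CACGTG and 1 of ATAACAA. The IAA1 window held 1 TGTCTC on the opposite strand, and the DLK2 and KUF1 windows held none of the 3 motifs in these letters. Of 27443 protein-coding promoters of the same length, 10.95% held TGTCTC, 6.486% held CACGTG and 11.65% held ATAACAA. A match of letters is a description and was not tested as a binding site.

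**Figure D3:**
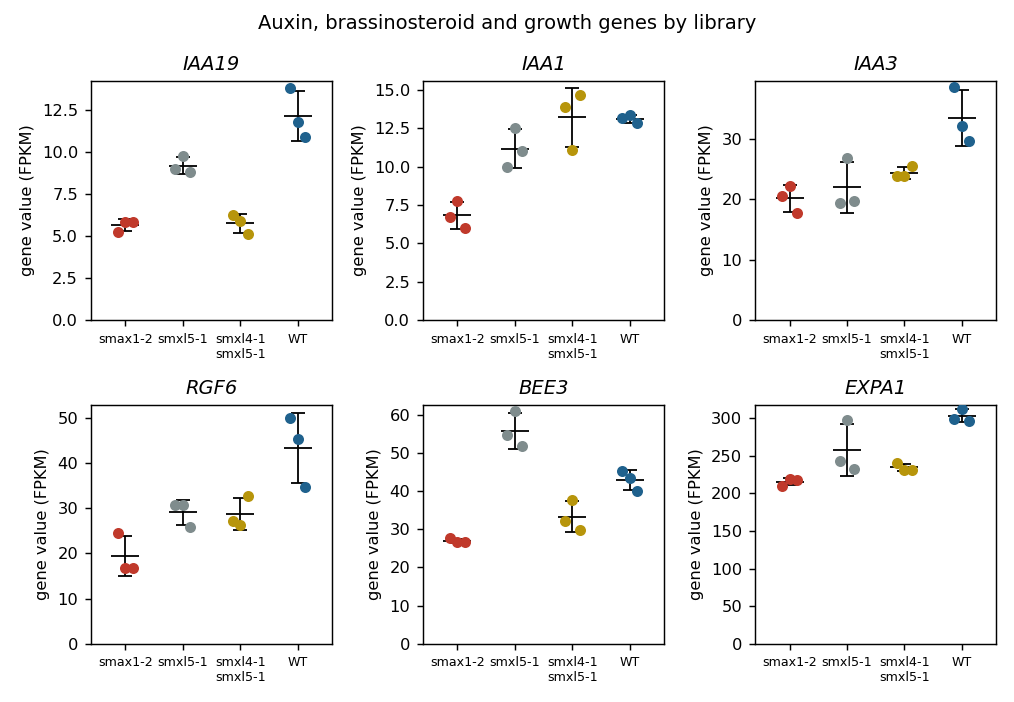
Gene value in FPKM (vertical axis) of the Aux/IAA genes IAA19, IAA1 and IAA3, the peptide gene RGF6, the bHLH gene BEE3 and the expansin gene EXPA1 in each library of the 4 genotypes; points are libraries, the long bar is the mean and the error bar the SD of 3 libraries. In all 6 panels the smax1-2 libraries lie below all WT libraries, as in EXPA1 with 210 to 219 FPKM against 297 to 313 FPKM.

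The brassinosteroid and wall-loosening lists, whose genes act in cell elongation beside auxin, also had more members lower than higher in smax1-2. The brassinosteroid list mixes synthesis, receptor and response genes, so its count does not give the direction of the response. In the brassinosteroid list 8 of 16 genes tested were lower in smax1-2 without overlap (against 4.43% of all genes tested) and none higher (against 12.9% of all genes tested), and the median log2 fold change was -0.17. With effective length BEE3 was called lower, the 1 call of the list. BEE1, BEE2 and BEE3 are related bHLH genes that brassinosteroid induces. BEE3 was at 27.7, 26.6 and 26.7 FPKM in smax1-2 against 45.2, 43.4 and 40.1 FPKM in WT (log2 fold change -0.65, SE 0.10, adjusted p = 0.0904). With effective length the adjusted p was 0.0436, it lay between 0.0271 and 0.912 over the 15 alternatives, and leaving out any 1 library ended the call (0.0892 to 0.211). BEE3 was high in smxl5-1, with a mean of 55.8 FPKM, and the difference of smax1-2 from smxl5-1 passed the test (log2 difference -1.02, adjusted p = 0.00238). BEE1 was at 9.44, 5.87 and 9.81 FPKM in smax1-2 against 17.0, 17.58 and 18.8 FPKM in WT (log2 fold change -1.03, adjusted p = 0.198), and it too was lower than in smxl5-1 (log2 difference -1.52, adjusted p = 0.0154). The brassinosteroid-synthesis genes CPD, ROT3 and BR6OX2 and the receptor gene BRI1 were among the 8, with log2 fold changes of -0.19 to -0.35 and none called.

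In the wall-loosening list 5 of 18 genes were lower without overlap (against 4.43% of all genes tested) and none higher (against 12.9%), none was called, and the median log2 fold change was -0.07. EXPA1, an expansin gene, was at 210, 219 and 217 FPKM in smax1-2 and at 299, 313 and 297 FPKM in WT (log2 fold change -0.49, SE 0.09, adjusted p = 0.168). XTH17, which encodes an enzyme that cuts and joins xyloglucan, was at 18.3, 19.9 and 15.2 FPKM in smax1-2 against 44.3, 38.3 and 37.8 FPKM in WT (log2 fold change -1.14, adjusted p = 0.573). It spread widely in smxl5-1, between 33.1 and 70.7 FPKM. In smxl4-1 smxl5-1 XTH17 averaged 14.3 FPKM, so low levels were not limited to smax1-2 (adjusted p = 0.721 for the difference). EXGT-A3, a further xyloglucan endotransglucosylase gene outside the list, was at 62.3, 80.3 and 68.6 FPKM in smax1-2 against 113, 118 and 117 FPKM in WT (log2 fold change -0.72, adjusted p = 0.098). The remaining 3 of the 5 were EXPA8, XTH4 and XTH22, with log2 fold changes of -0.59, -0.56 and -0.43. XTH22 averaged 28.8 FPKM in smax1-2 and was lower still in smxl4-1 smxl5-1, at 17.9 FPKM (log2 difference 0.67, adjusted p = 0.0394).

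RGF6 (AT4G16515), which encodes a small secreted peptide of the root meristem growth factor family, was at 24.6, 16.8 and 16.9 FPKM in smax1-2 against 50.03, 45.3 and 34.8 FPKM in WT. The log2 fold change was -1.13 (SE 0.17, adjusted p = 0.098), and -1.18 (adjusted p = 0.0347) with effective length, with 0.0347 to 0.41 over the 15 alternatives. With effective length the call remained without WT replicate 3 (adjusted p = 0.0403) and without smax1-2 replicate 1 (0.0356), and was lost without any 1 of the other 4 libraries (0.129 to 0.197). AT2G27420, a papain-like cysteine proteinase gene, was at 11.6, 11.9 and 9.47 FPKM in smax1-2 against 22.5, 19.4 and 17.7 FPKM in WT (adjusted p = 0.0729, and 0.0347 with effective length, with 0.0296 to 0.912 over the 15 alternatives). The genotypes did not overlap, and no fit that left out 1 library called it. It was as low in smxl5-1, at a mean of 11.04 FPKM, and high in smxl4-1 smxl5-1 at 35.0 FPKM (log2 difference of smax1-2 from the double mutant -1.59, adjusted p = 0.000187). The other lower genes of smallest p that were not called were PAP3, a purple acid phosphatase gene, ARAB-1, a lipase gene of the GDSL type, BZIP61, AT3G16850 and AT2G07811. Apart from AT2G07811, which was listed in 1 smax1-2 library at 2.76 FPKM and in WT at 11.1, 13.8 and 10.5 FPKM, their log2 fold changes were -0.37 to -0.53.

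In the light and hypocotyl list, 7 of 32 genes tested were lower without overlap (against 4.43% of all genes tested) and 3 higher (against 12.9%), none was called, and the median log2 fold change was -0.06. HFR1, a bHLH gene that limits shade-induced growth, was at 8.14, 7.30 and 7.21 FPKM in smax1-2 against 17.1, 13.4 and 13.6 FPKM in WT (log2 fold change -0.87, SE 0.22, adjusted p = 0.493). BBX31 was at 7.62, 8.69 and 5.88 FPKM against 12.9, 10.8 and 10.4 FPKM. HY5, the bZIP factor that promotes light responses, was higher without overlap at 22.1, 23.5 and 21.3 FPKM in smax1-2 against 17.5, 18.1 and 20.3 FPKM in WT (log2 fold change 0.25, adjusted p = 0.728). ELIP1, which encodes a light-induced chloroplast protein, was at 12.4, 13.8 and 13.7 FPKM in smax1-2 against 8.21, 6.87 and 9.84 FPKM in WT. Its means were 12.5 FPKM in smxl5-1 and 12.1 FPKM in smxl4-1 smxl5-1. The photoreceptor genes PHYA, CRY1 and PHOT1 were among the 7 lower genes, with log2 fold changes of -0.14, -0.08 and -0.43.

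AT4G14020 (chromosome 4, 8095050 to 8095749, - strand, 1 exon), annotated as a member of the RALF family of secreted signalling peptides, rose in smax1-2. It was at 69.4, 69.3 and 83.4 FPKM in smax1-2 against 37.0, 34.4 and 39.0 FPKM in WT (log2 fold change 0.99, SE 0.11, adjusted p = 0.0153). It was called with effective length too (adjusted p = 0.0223), and the means of 53.4 FPKM in smxl5-1 and 51.9 FPKM in smxl4-1 smxl5-1 lay between the 2 genotypes. The difference of smax1-2 from these mutants did not pass the test (adjusted p = 0.152 and 0.0558), while with effective length that from smxl4-1 smxl5-1 did (log2 difference 0.54, adjusted p = 0.0369). The call remained without smax1-2 replicate 1 (adjusted p = 0.0457) or replicate 2 (0.047), and was lost without smax1-2 replicate 3 (0.0681) and without WT replicate 1 (0.0829), 2 (0.0856) or 3 (0.0503).

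ABCG22, a gene for an ABC transporter known for limiting water loss from leaves, was at 32.1, 24.1 and 36.6 FPKM in smax1-2 and at 12.96, 8.96 and 10.2 FPKM in WT. The log2 fold change was 1.44 (SE 0.21, adjusted p = 0.0729), and with effective length 1.52 (adjusted p = 0.0312, with 0.0243 to 0.912 over the 15 alternatives). With effective length the call remained without smax1-2 replicate 2 (adjusted p = 0.0268) and was lost without any 1 of the other 5 libraries. AT3G60290, an oxygenase gene of the 2-oxoglutarate-dependent type, was at 14.6, 13.6 and 13.96 FPKM in smax1-2 against 4.89, 3.70 and 5.097 FPKM in WT. Its log2 fold change was 1.44 (adjusted p = 0.441), and it was called with effective length (adjusted p = 0.0347, with 0.0333 to 0.912 over its 14 alternatives) but in no fit that left out 1 library. The uncalled higher genes of smallest p also included AT1G20070, AT5G09270 and CID9, with log2 fold changes of 0.81, 0.57 and 0.71. LNO1, AT4G32360 and AT1G78730 were at 0.91, 0.87 and 1.08 with plain length, and at -0.02, 0.07 and 0.29 with effective length.

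**Figure D4:**
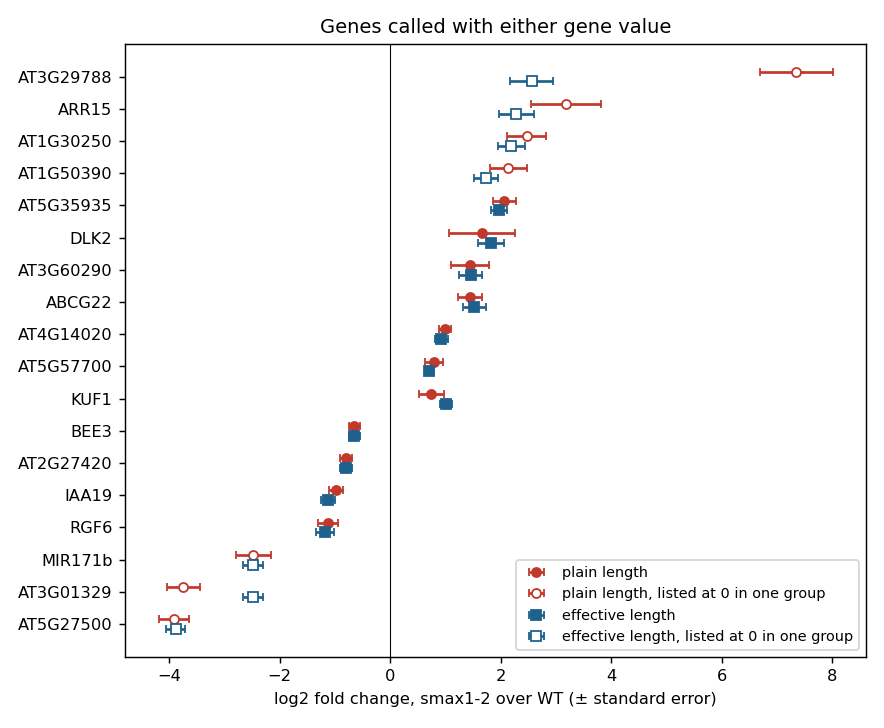
Log2 fold change of smax1-2 over WT with its standard error (horizontal axis) for the 18 genes called with plain length (circles) or with effective length (squares). Open symbols are genes listed at 0 in all libraries of 1 genotype, where the value depends on the pseudocount of 1 and is no measured fold; AT3G29788 moves between 7.35 and 2.56, while IAA19 lies at -0.98 and -1.13.

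In the cytokinin list, 4 of 17 genes tested were higher in smax1-2 without overlap (against 12.9% of all genes tested) and none lower (against 4.43%), and the median log2 fold change was 0.27. With effective length 4 of 16 were higher and 1 lower, beside 12.0% and 5.19% of all genes tested, and the median was 0.12. ARR15, a type-A response regulator gene that cytokinin induces, was at 11.2, 6.15 and 7.55 FPKM in smax1-2 and was listed at 0 in all WT libraries (adjusted p = 0.261, and 0.0347 with effective length, with 0.0347 to 0.609 over its 14 alternatives). It averaged 3.28 FPKM in smxl5-1 and 2.97 FPKM in smxl4-1 smxl5-1, and neither difference from smax1-2 passed the test (adjusted p = 0.491 and 0.324). With effective length smax1-2 was higher than smxl4-1 smxl5-1 (log2 difference 1.53, adjusted p = 0.0303). Leaving out any 1 library ended the call with effective length (adjusted p 0.0758 to 0.166). ARR4, another type-A gene, was at 52.7, 50.5 and 54.1 FPKM in smax1-2 against 43.7, 43.5 and 42.6 FPKM in WT (log2 fold change 0.27, SE 0.06, adjusted p = 0.405). The cytokinin-synthesis gene IPT7 and the receptor gene AHK4 were the other 2.

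In the anthocyanin and flavonoid list, 7 of 18 genes tested were higher without overlap (against 12.9% of all genes tested) and none lower (against 4.43%), none was called, and the median log2 fold change was 0.35. With effective length 3 of 18 were higher without overlap, beside 12.0% of all genes. GSTF12, needed to carry anthocyanins to the vacuole, was at 8.87, 8.01 and 4.46 FPKM in smax1-2 against 2.92, 4.32 and 2.86 FPKM in WT (log2 fold change 0.86, adjusted p = 0.519). Its mean in smxl4-1 smxl5-1 was 51.9 FPKM, and the difference of smax1-2 from that genotype passed the test (log2 difference -2.75, adjusted p = 0.000403). The anthocyanin regulator PAP1 was at 1.40, 2.15 and 3.63 FPKM in smax1-2, was listed at 0 in WT and averaged 14.8 FPKM in smxl4-1 smxl5-1. FLS1, the flavonol synthase gene, was at 20.7, 27.1 and 20.8 FPKM in smax1-2 against 17.58, 14.6 and 17.7 FPKM in WT.

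In the salicylic acid and defence list, 6 of 14 genes tested were higher without overlap (against 12.9% of all genes tested) and none lower (against 4.43%), none was called, and the median log2 fold change was 0.30. With effective length 6 of 14 were higher and 1 lower, beside 12.0% and 5.19% of all genes tested, and the median was 0.18. With plain length 4 of the 14 had a log2 fold change below 0, and with effective length 6 did. PR3, a basic chitinase gene, was at 27.4, 34.6 and 27.2 FPKM in smax1-2 against 18.6, 18.0 and 17.7 FPKM in WT (log2 fold change 0.68, SE 0.14, adjusted p = 0.262). PR4 was at 137, 139 and 162 FPKM against 107, 117 and 113 FPKM, and PR5 was at 10.2, 12.4 and 9.67 FPKM against 5.79, 8.34 and 7.19 FPKM. All 3 PR genes were higher in smax1-2 than in smxl4-1 smxl5-1 (adjusted p = 0.00199 for PR3, 0.00367 for PR4 and 0.0213 for PR5). Their means in that double mutant, 11.84, 79.57 and 4.638 FPKM, also lay below the WT means of 18.09, 112.3 and 7.105 FPKM. In smxl5-1 PR3 averaged 27.04 FPKM and PR4 200.1 FPKM, so high levels of PR3 and PR4 were not limited to smax1-2. PR5 averaged 5.787 FPKM in smxl5-1. None of the 3 differences of smax1-2 from smxl5-1 passed the test (adjusted p = 0.736, 0.149 and 0.147). The sugar transporter gene STP13, often counted among defence-related carriers, is from the sugar and starch list. It was at 8.85, 7.81 and 9.56 FPKM in smax1-2 against 4.73, 5.90 and 4.89 FPKM in WT (log2 fold change 0.66, adjusted p = 0.309). STP13 averaged 10.9 FPKM in smxl5-1 and 8.82 FPKM in smxl4-1 smxl5-1, so high levels were not limited to smax1-2.

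In the cell cycle list 5 of 11 genes were higher without overlap (against 12.9% of all genes tested) and none lower (against 4.43%), with a median log2 fold change of 0.29 and no call. The mitotic genes CDKB2;2 and CYCB1;4 were among them. CDKB2;2 was at 14.1, 15.6 and 15.9 FPKM in smax1-2 and at 11.6, 11.6 and 11.1 FPKM in WT. Among the markers of shoot meristem and leaf, 5 of 11 were higher without overlap (against 12.9% of all genes tested), which were YAB3 and the stomatal-lineage genes SPCH, FAMA, EPF2 and TMM, none was called, and the summed level of the list was 200.1 to 216.9 FPKM in smax1-2 against 173.3 to 179.2 FPKM in WT. Of its 13 genes CLV3 and WUS were at 0 in all 6 libraries. Summed root markers were 110.7 to 128.2 FPKM in smax1-2 and 89.5 to 115.7 FPKM in WT, and summed phloem markers were 308.2 to 359.6 FPKM and 295.5 to 331.9 FPKM. In whole seedlings, more cells of a type and more RNA per cell cannot be told apart, and the part of these markers in the results was not tested. Of 14 seed markers 12 were at 0 in all 6 libraries, and the seed albumin gene SESA2 was at 45.7 FPKM in smax1-2 replicate 2 alone.

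The other lists held no called gene with either gene value. Their counts without overlap stand beside 12.9% of all genes higher and 4.43% lower (12.0% and 5.19% with effective length). The gibberellin list had 3 higher and 3 lower genes of 18 (5 and 4 of 16 with effective length), among them GA3OX1 of gibberellin synthesis at 8.50, 10.8 and 10.2 FPKM in smax1-2 against 5.53, 6.68 and 7.57 FPKM in WT. The ethylene list had 2 higher and 3 lower of 16, the circadian clock list 4 and 2 of 18, and the abscisic acid and dehydration list 3 and 1 of 22. The photosynthesis list had none higher and 3 lower of 25, with a median log2 fold change of -0.08, and the summed level of its genes overlapped between the genotypes. The phosphate starvation list had the lowest median, -0.23, with 1 gene higher and 1 lower of 18. The jasmonate, nitrate, iron, sugar, heat shock, root hair, phloem, xylem and root lists had 0 to 3 genes in either direction.

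**Figure D5:**
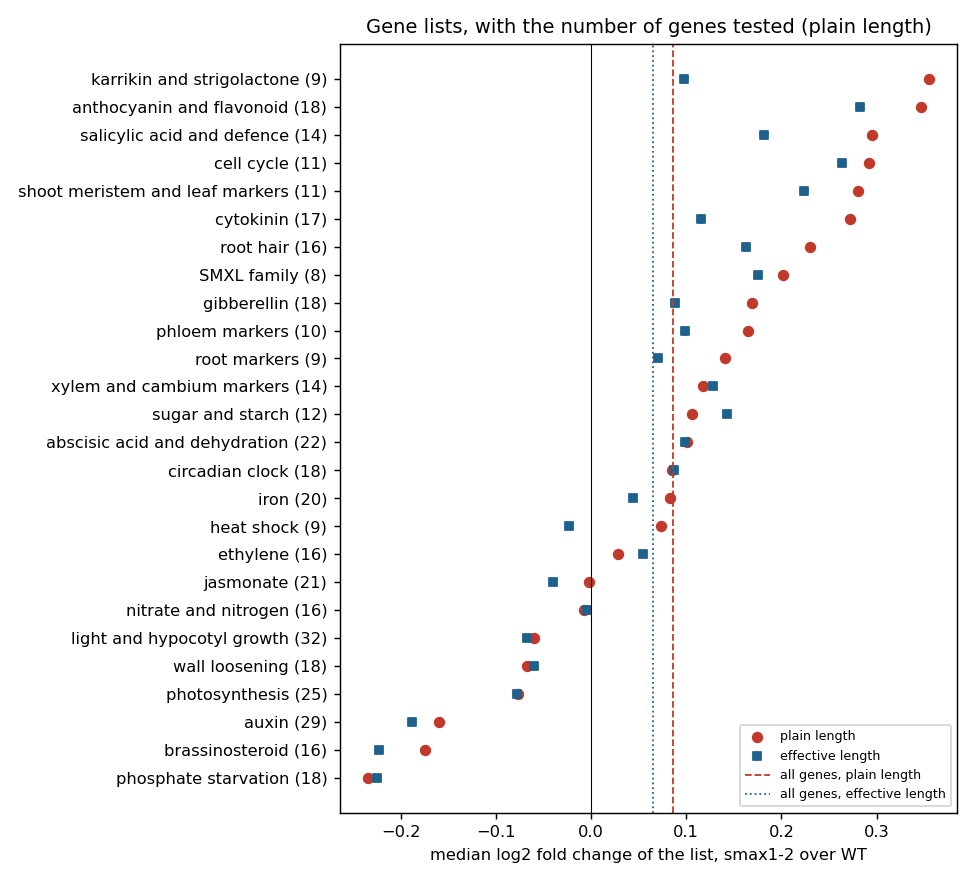
Median log2 fold change of smax1-2 over WT (horizontal axis) for each gene list with plain length (circles) and effective length (squares), with the number of genes tested in brackets; the vertical lines mark the medians of all genes tested, 0.09 and 0.07. The seed marker list, with 2 genes tested, is not drawn; the auxin and brassinosteroid medians lie at -0.16 and -0.17 and the anthocyanin median at 0.35.

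Loci listed in 1 genotype alone made up 4 of the 7 calls. Their spread was estimated in the fit over all genotypes, and in the other genotypes every library was at 0 (SD 0). Their adjusted p-values therefore rest in part on groups without spread. In all, 38 genes were listed in every smax1-2 library and in no WT library, and 23 the other way round, with means of at least 5 FPKM in 10 and 5 of them. AT5G27500, an annotated pseudogene on chromosome 5 (9708136 to 9709444, + strand), was listed at 0 in every smax1-2 library and at 15.2, 11.2 and 16.3 FPKM in WT (adjusted p = 0.00104). AT3G01329, a gene of the ECA1-like gametogenesis family on chromosome 3 (118849 to 119178, - strand), was listed at 0 in smax1-2 and at 8.97, 15.5 and 13.7 FPKM in WT (adjusted p = 0.00166). Both were also listed at 0 in all smxl5-1 and smxl4-1 smxl5-1 libraries, so WT stood apart from all mutants. They were called without any 1 smax1-2 library, but each library left out was at 0. Without a WT library they no longer met the level for testing, so these fits do not check the WT values.

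AT3G29788, a transcribed pseudogene on chromosome 3 (11602028 to 11603824, - strand), was at 666, 84.8 and 75.0 FPKM in smax1-2 and was listed at 0 in the other 9 libraries (adjusted p = 0.00341). These values came mainly from pieces of 58, 79 and 83 bases with 8705, 791 and 685 FPKM, shorter than the fragment length assumed, beside a piece of 371 bases with 4.86 FPKM in replicate 2, and with effective length the gene was not called (adjusted p = 0.0648). AT5G35935, an annotated pseudogene on chromosome 5 (14083388 to 14089891, - strand), was at 3.19, 3.67 and 3.61 FPKM in smax1-2 against 0.229, 0 and 0 FPKM in WT (log2 fold change 2.07, adjusted p = 0.00923). It averaged 2.97 FPKM in smxl5-1 and 3.33 FPKM in smxl4-1 smxl5-1. The call was lost without smax1-2 replicate 2 (adjusted p = 0.0528) or 3 (0.0681), but with effective length it remained without any 1 of the 6 libraries (0.00238 to 0.00486). AT1G30250 and AT1G50390 were listed in the 3 smax1-2 libraries alone of all 12, at 3.70, 3.68 and 6.71 FPKM and at 3.05, 3.46 and 3.68 FPKM, and were called with effective length (adjusted p = 0.011 and 0.0233, with at most 0.255 and 0.353 over their alternatives). AT1G30250 remained called only without WT replicate 3 (adjusted p = 0.0496) among its 3 fits with a library left out, and AT1G50390 in none of its 3. Each of these fits left out a WT library at 0. Without a smax1-2 library neither gene met the level for testing.

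The precursor gene of the microRNA miR171b (AT1G11735, chromosome 1, 3961348 to 3961464, - strand) was listed at 0 in every smax1-2 library and at 4.45, 4.796 and 4.51 FPKM in WT (adjusted p = 0.0373, and 0.000444 with effective length, with 0.000356 to 0.335 over its 13 alternatives). It was at 0 in the other mutants as well. The WT pieces were 298 to 406 bases long and so longer than the annotated precursor of 117 bases. The call did not hold with a smax1-2 library left out (adjusted p 0.106 to 0.141), and with effective length it did (0.00269 to 0.00433). The libraries left out in these fits were all at 0. Without a WT library the gene no longer met the level for testing, so these fits do not check the WT values. The precursor is annotated with miR171b-3p and miR171b-5p. The mature sequence of miR171b-3p is shown 5′ to 3′ because it decides which transcripts that microRNA can pair with. Its bases 2 to 8, the seed, are in capitals.
miR171b-3p: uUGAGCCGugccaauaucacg
In plants miR171 is known to cut the transcripts of the GRAS transcription factor genes HAM1, HAM2 and HAM3. None of these was called. HAM1 was at 18.7, 16.9 and 16.8 FPKM in smax1-2 against 14.3, 14.9 and 14.9 FPKM in WT, HAM2 at 11.7, 9.06 and 11.3 FPKM against 8.25, 9.35 and 10.9 FPKM, and HAM3 at 9.67, 9.60 and 11.1 FPKM against 6.69, 7.56 and 8.63 FPKM. HAM1 and HAM3 were higher in smax1-2 without overlap, as were 12.9% of all genes tested, with adjusted p-values of 0.756 and 0.69, while HAM2 overlapped. A link between these levels and the precursor was not tested. Poly-A libraries of this kind measure the precursor transcript and not the mature microRNA.

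The genes on either side of SMAX1 on chromosome 5 were examined after their values had been seen. AT5G57700, an upstream gene on the same strand that encodes a BNR/Asp-box repeat protein (23374873 to 23377229), was at 26.7, 33.3 and 23.0 FPKM in smax1-2 against 14.4, 14.6 and 17.3 FPKM in WT. Its log2 fold change was 0.79 (SE 0.16, adjusted p = 0.262), and with effective length it was called higher (0.71, adjusted p = 0.0127, with 0.0127 to 1 over the 15 alternatives). With effective length it was also higher than in smxl5-1 (adjusted p = 0.0275) and in smxl4-1 smxl5-1 (0.00202). Its call remained without smax1-2 replicate 3 (adjusted p = 0.0382) and was lost without any 1 of the other 5 libraries (0.0561 to 0.0766). AT5G57720, the downstream gene on the opposite strand for an AP2/B3-like factor (23389745 to 23391662), was at 2.02, 1.09 and 1.88 FPKM in smax1-2 and at 0 in the other 9 libraries (adjusted p = 0.543). Of the 12 genes on either side, 10 others were tested, with log2 fold changes of -0.22 to 0.60, and none was called with either gene value.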

How the data were processed

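Per the labels, poly-A RNA of pooled whole seedlings was sequenced in 12 libraries, 3 for each genotype. The read aligner TopHat2 2.0.14 and the TAIR10 build are named, per the submitters' processing notes. The labels state neither the assembler nor the strand protocol. Per the file headers, each row of a deposited table is 1 assembled transcript piece with its FPKM. The deposited tables also hold a coverage signal and a percent of the most abundant piece of the locus, neither of which was used.

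A gene's value was the sum over pieces (345442 of 353616, with class code =, c, j, e or o) of FPKM times the piece length, at most the reference length, divided by the reference length. Effective length assumed fragments of 200 ± 80 bases. A gene with no piece was set to 0. Genes with a value of at least 1 in at least 3 libraries were tested with limma 3.58.1 (limma-trend, two-sided, R 4.3.3) on log2(value + 1) in 1 fit of 12 libraries and 4 groups, with Benjamini-Hochberg adjustment over all genes, so a fold change understates the change of low genes. Alone, 3 against 3 libraries could not go below p = 0.1 in an exact permutation test. The fit was also run on simulated data, whose outcome is not given here, so no support for the calls is drawn from it. Names and coordinates are from TAIR10.1, which holds 20728 of the 20869 genes.

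Named were the SMXL family and the karrikin and strigolactone list, and all called genes. The 10 genes of smallest p in each direction with a mean of at least 5 FPKM and no overlap were also named. The 3 genes of smallest p were named for the auxin, brassinosteroid, wall-loosening, light and hypocotyl, cytokinin, anthocyanin and salicylic acid lists. For the remaining lists only some or none of these 3 were named. Other list members, HAM1 to HAM3 and the neighbours of SMAX1 were named after their values were seen. Not every list member is reported here. The comparison, the lists and the tests were chosen with earlier results of these data known. The same replicate number in smax1-2 and WT did not mark paired samples.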

Additional observations from a re-analysis of the deposited data

How the results depend on the processing

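The count of called genes was 7 (3 higher, 4 lower). It was 17 with effective length (10 higher, 7 lower) and 17 with pieces of class code = alone (5 and 12). With a plain sum of FPKM 2 genes were lower. Without a filter there were 11 calls (6 higher), and with a level of at least 5 there were 3 (1 lower). Library weights gave 28 (9 and 19), and the 6 smax1-2 and WT libraries alone gave 1, with 0 higher and 1 lower. Effective length gave 11 calls with the 6 libraries alone (7 lower) and 22 with median-of-ratios scaling (10 and 12). The last 2 combinations, and effective length with a library left out, were chosen after seeing the data. With 1 library left out, the count was 3 to 8 (0 to 6 higher, 0 to 6 lower), and with effective length it was 4 to 13 (2 to 8 higher, 0 to 9 lower). Genes listed in 1 of the 4 genotypes alone were not tested without a library of that genotype. Pseudocounts of 0.5 and 5, robust estimation, quantile normalization and median-of-ratios scaling gave 7 or 8 calls. The replicate block, with the replicate number as a term, gave 4 calls (2 higher, 2 lower); same-numbered deviations correlated at -0.002, -0.030 and -0.026, so the numbers do not pair the libraries. The SMAX1 log2 fold change was negative in every setting, -0.28 to -0.44. No called gene turned its direction. Genes higher without overlap numbered 7 of 18 in the anthocyanin list and 3 of 18 in the gibberellin list, beside 12.9% of all genes tested. With effective length they numbered 3 of 18 and 5 of 16, beside 12.0%. The cause of these shifts was not tested. With no counts deposited, the depth limits on single genes are unknown.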
